A study of Homo sapiens with 7 samples.

Results

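This report concerns 10 genes for nucleolar ribonucleoproteins and ribosome biogenesis in HCT116 cells: NCL, NPM1, NOLC1, FBL, NOP56, NOP58, DKC1, NHP2, NOP10 and GAR1. The members were chosen by symbol, all 10 were found among the 20056 genes with values, and all 10 passed the filter on low values that left 14305 genes for testing. Ribosomal RNA is made, cut, chemically modified and packed with ribosomal proteins in the nucleolus. Small nucleolar RNAs (snoRNAs) guide the modification, and each works inside a ribonucleoprotein (snoRNP) with a fixed protein core. Box C/D snoRNPs, with the methyltransferase fibrillarin (FBL) and the scaffold proteins NOP56 and NOP58, place methyl groups on ribose, while H/ACA snoRNPs, with the pseudouridine synthase dyskerin (DKC1) and its partners NHP2, NOP10 and GAR1, turn uridine into pseudouridine. NCL (nucleolin), NPM1 (nucleophosmin) and NOLC1 are abundant nucleolar phosphoproteins that act as RNA-binding protein, assembly chaperone and snoRNP partner, respectively.

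HCT116 is an established human colorectal carcinoma line, and all 7 libraries came from log-phase cells of that line in serum-free medium with EGF, insulin and transferrin, divided after growth into 3 parts. The GRO-seq libraries (n = 2) hold RNA that polymerases extended with bromo-UTP in isolated nuclei and give the transcription rate (TR). The RNA-seq libraries (n = 3) hold total mRNA and give mRNA abundance (RA), and the polysome libraries (n = 2) hold mRNA that sedimented with several ribosomes in a sucrose gradient after cycloheximide and give translation activity (TA). No group carried a genetic change, and cycloheximide, which halts ribosomes on the mRNA, is described for the polysome cells alone. The comparisons are between 3 kinds of RNA from 1 cell line, and assay, cycloheximide and RNA kind cannot be told apart. The sources speak of biological replicates without tying them to named cultures, so the p-values measure only the spread between these libraries.

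All values are RPKM, reads per kilobase of exon scaled to the mapped reads of the library. Levels can thus be set side by side between genes of a library, while between libraries they compare shares of the reads. The libraries ranged from 3391897 reads, in TR replicate 1, to 30805391 reads, in TA replicate 1, and the 10 genes had between 85 reads (GAR1 in TR replicate 1) and 63455 reads (NCL in TA replicate 1), so counting error was largest in TR. The RA libraries carried the epithelial genes EPCAM, CDH1, KRT8, KRT18 and KRT19 at mean levels from 47.1 RPKM (CDH1) to 977 RPKM (KRT19), while the intestinal brush border gene VIL1 was near 0, at 0.0118 RPKM. The leukocyte gene PTPRC was at 0.0039 RPKM, the endothelial gene PECAM1 at 0.011 RPKM, the hepatocyte gene ALB at 0.155 RPKM, and of the fibroblast collagens COL1A2 was listed at 0 in each RA library while COL1A1 averaged 11.5 RPKM.

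Several of the genes carry snoRNAs in their introns, so that 1 transcript gives both a protein of the machinery and an RNA it acts with. In the GENCODE annotation of GRCh37 (hg19, the build of the deposited data), 12 snoRNA entries lie in introns of 4 of the genes: 4 in NOP58, 3 each in NCL and NOP56, and 2 in DKC1. Those of NOP58 are all of the box C/D kind, those of DKC1 are both H/ACA, and NCL and NOP56 carry both kinds. The RPKM values cover exons of the host genes, and levels of the snoRNAs themselves were not analysed here. Shown here, to let the kinds be compared, are 2 box C/D snoRNAs with box C (ATGATGA or GTGATGA, searched near the 5′ end) and box D (CTGA, near the 3′ end) in capitals, and 2 H/ACA snoRNAs with the H box (ANANNA, nearest the middle) and the final ACA in capitals. SNORD20 lies in intron 11 of NCL at chr2:232321155-232321234 on the minus strand, SNORD11 in intron 9 of NOP58 at chr2:203157772-203157859 on the plus strand, SNORA75 in intron 12 of NCL at chr2:232320511-232320647 on the minus strand, and SNORA56 in intron 12 of DKC1 at chrX:154003273-154003401 on the plus strand.
SNORD20: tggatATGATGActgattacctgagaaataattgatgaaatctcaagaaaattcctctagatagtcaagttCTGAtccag
SNORD11: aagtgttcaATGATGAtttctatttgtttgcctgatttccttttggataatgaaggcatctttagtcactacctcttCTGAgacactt
SNORA75: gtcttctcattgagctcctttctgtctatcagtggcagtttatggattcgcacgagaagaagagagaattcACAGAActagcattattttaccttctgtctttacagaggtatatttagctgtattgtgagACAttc
SNORA56: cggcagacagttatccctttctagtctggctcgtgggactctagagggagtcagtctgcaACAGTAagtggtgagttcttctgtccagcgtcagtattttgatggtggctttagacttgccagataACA
Both box C/D sequences are short and hold their boxes close to the ends, at 80 and 88 bases, whereas the H/ACA sequences run to 137 and 129 bases with the H box in the middle. By these searches, boxes C and D were both found in 5 of the box C/D entries and box D alone in the other 3, and the H box and ACA were found in all 4 H/ACA entries, although ANANNA is so loose a pattern that a match is only a description.

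As a group, the 10 genes stood higher in mRNA abundance relative to transcription than most genes did. On polysomes relative to mRNA abundance, NOP58 and NOLC1 were called higher, NOP10 was called lower and the other 7 were not called. The ratio of RA to TR on the log2 scale (the stability index, read operationally as mRNA stability) had a median of 0.90 over the 10 genes and of -0.58 over all genes tested, and each of the 10 lay above the median of all genes. The ratio of TA to RA (the translation index) had a median of 0.46 over the 10 genes and of -0.37 over all genes, with 8 of the 10 above the median of all genes. For TA against TR the medians were 1.43 and -1.08. The medians of all genes depended on the filter. Over the 10825 genes averaging 1 RPKM or more in all 3 groups, that of RA against TR was -0.17. Those of TA against RA and TA against TR were -0.28 and -0.51. The paper reports that RA tends to exceed TR in genes of high expression. The 10 genes were not compared with genes of like level, so the part of expression level in these ratios was not tested. Since RPKM gives shares of a library, these ratios are relative to the other RNAs of each library and say nothing of molecules per cell. Both indices use the RA libraries and are not independent of each other.

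**Figure D1:**
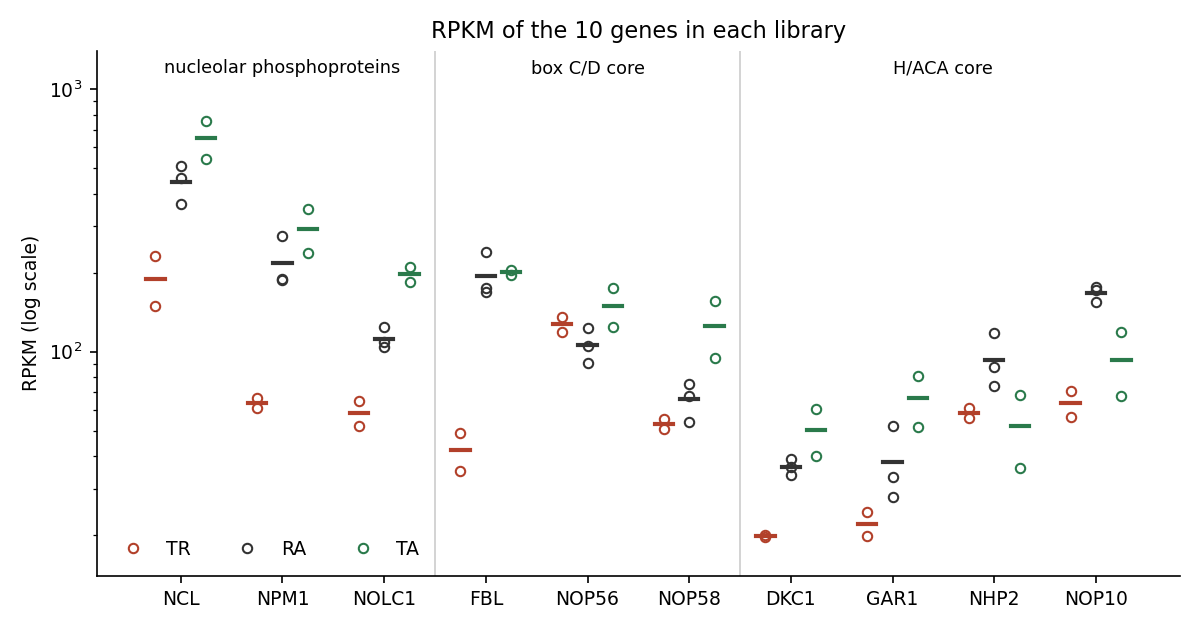
RPKM (log scale) of each of the 10 genes, with 1 circle per library for TR (n = 2), RA (n = 3) and TA (n = 2) and a bar at the mean. In 8 genes all RA circles lie above both TR circles, the exceptions being NOP56 and NOP58, and NHP2 and NOP10 are the genes whose TA circles all lie below their RA circles.

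The test was limma on log2(RPKM + 0.1) over all 7 libraries, with p-values adjusted over the 14305 genes by Benjamini-Hochberg, and a gene is called at an adjusted p under 0.05. Of the 10 genes, 6 were called higher in RA than in TR, 0 were called lower and 4 were not called. Over all genes tested, 19.2% were called higher and 48% lower. The range of the RA libraries lay wholly above that of the TR libraries in 8 of the 10 genes, against 24.3% of all genes, and wholly below it in 0, against 54.9% of all genes. For TA against RA, 2 genes were called higher, 1 lower and 7 were not called, beside 6.66% of all genes called higher and 29.2% called lower. The TA range lay above the RA range in 5 of the 10 genes (14.4% of all genes) and below it in 2 (43.8% of all genes). For TA against TR, 7 of the 10 were called higher and 0 lower, beside 17% and 57.5% of all genes, and the ranges lay apart upward in 7 and downward in 0, beside 22.7% and 65.5% of all genes. With every library set to the same median, the median ratio of all genes moved from -0.58 to 0.093 for RA against TR, from -0.37 to 0.13 for TA against RA and from -1.08 to 0.095 for TA against TR, so each ratio is also read against the median of all genes. With that scaling 9 of the 10 genes were called higher in RA than in TR, 7 higher in TA than in RA and 10 higher in TA than in TR, with 0 called lower in each, and over all genes TA against RA gave 2713 higher and 1404 lower calls in place of 953 and 4173.

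NCL, which binds nascent ribosomal RNA and many mRNAs, had the highest level of the 10 genes in each library. The gene lies at chr2:232318242-232348352 on the minus strand, with 14 exons in its canonical transcript. It was at 231 and 149 RPKM in TR, at 509, 457 and 366 RPKM in RA, and at 758 and 542 RPKM in TA. The 3 groups of libraries were stacked without overlap, TR lowest and TA highest. RA exceeded TR 2.37-fold (log2 1.25, SE 0.32, limma adjusted p = 0.00815), and the call was lost without TR replicate 2, where the log2 ratio was 0.93 and the limma adjusted p 0.0906. TA exceeded RA by 0.54 on the log2 scale (SE 0.32), which was not called (limma adjusted p = 0.211), while TA exceeded TR 3.46-fold (limma adjusted p = 0.00168). Among the 14305 genes tested, NCL ranked 134 in TR, 77 in RA and 56 in TA.

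NPM1, a chaperone that carries ribosomal subunits and histones, was also higher in RA than in TR, and its polysome levels overlapped its mRNA levels. NPM1 spans chr5:170814120-170838814 on the plus strand with 11 exons. Its TR libraries were at 61.0 and 66.3 RPKM, its RA libraries at 187, 274 and 188 RPKM, and its TA libraries at 349.7 and 237 RPKM. All RA libraries stood well above both TR libraries, and the TA libraries fell on both sides of the highest RA library. RA exceeded TR 3.35-fold (log2 1.74, SE 0.26, limma adjusted p = 0.000549), above the ratio of 96.4% of genes tested. TA against RA gave a log2 ratio of 0.43 (SE 0.26, limma adjusted p = 0.233) and was not called. The annotation names 49 pseudogenes for NPM1, 2 for NCL, 2 for NHP2, 3 for NOP56 and 1 for NOLC1, and how reads shared with such copies were assigned is not given in the sources used here, so the level of NPM1 in particular is uncertain.

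NOLC1, which shuttles between nucleolus and Cajal bodies and binds both kinds of snoRNP, was called higher in each of the 3 comparisons. The gene is at chr10:103911933-103923628 on the plus strand and has 13 exons. It was at 64.9 and 52.0 RPKM in TR, at 124, 108 and 104 RPKM in RA, and at 209 and 185 RPKM in TA. The groups did not overlap, and the polysome libraries differed little, by 1.13-fold. RA exceeded TR 1.92-fold (log2 0.94, SE 0.19, limma adjusted p = 0.00272), and TA exceeded RA 1.76-fold (log2 0.82, SE 0.19, limma adjusted p = 0.015). The second call was lost without RA replicate 3 (log2 0.76, limma adjusted p = 0.058) and without TA replicate 1 (log2 0.73, limma adjusted p = 0.0967).

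Of the box C/D core, FBL and the pair NOP56 and NOP58 took different courses from TR to RA. FBL, the enzyme that transfers the methyl group, lies at chr19:40325098-40337019 on the minus strand with 9 exons. It was at 49.1 and 35.1 RPKM in TR, at 175, 239.8 and 168 RPKM in RA, and at 196 and 204 RPKM in TA. RA was far above TR in all 3 libraries, by 4.62-fold (log2 2.21, SE 0.24, limma adjusted p = 7.88e-05), and the ratio exceeded that of 98.4% of genes tested. The TA libraries fell within the RA range. TA against RA gave a log2 ratio of 0.06 with a 95% interval of -0.49 to 0.61 (limma adjusted p = 0.873), so a change of up to that size in either direction cannot be told from none here.

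NOP56, which with NOP58 holds FBL on the guide RNA, was the 1 gene of the 10 with a mean level in TR above that in RA. It lies at chr20:2633239-2639039 on the plus strand with 12 exons. Its TR libraries, at 135 and 118 RPKM, overlapped its RA libraries, at 105, 123 and 90.2 RPKM, and its TA libraries, at 175 and 124 RPKM, lay just above the RA range. The log2 ratio of RA to TR was -0.26 (SE 0.23, limma adjusted p = 0.335) and turned to 0.41 when each library was centred on its median. This ratio still exceeded that of 58.7% of genes tested. TA against RA gave 0.49 on the log2 scale (SE 0.23, limma adjusted p = 0.133) and was not called.

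NOP58, the paralog of NOP56 in the same core, lies at chr2:203130459-203168384 on the plus strand with 15 exons. It was at 55.5 and 50.6 RPKM in TR, at 67.6, 75.5 and 54.1 RPKM in RA, and at 156 and 94.4 RPKM in TA. TR and RA overlapped, whereas both TA libraries stood above all RA libraries. RA against TR gave a log2 ratio of 0.30 (SE 0.25, limma adjusted p = 0.326), and TA exceeded RA 1.86-fold (log2 0.90, SE 0.25, limma adjusted p = 0.0279), a translation index above that of 97.0% of genes tested. The call was lost when RA replicate 3 (log2 0.76, limma adjusted p = 0.09) or TA replicate 1 (log2 0.53, limma adjusted p = 0.19) was left out. It was also lost without TR replicate 1 (limma adjusted p = 0.0718) or TR replicate 2 (limma adjusted p = 0.0721), where the ratio stayed at 0.90 and the spread was estimated from fewer libraries. A long non-coding RNA on the opposite strand covers 274 bases, 13.7%, of the exons of the NOP58 canonical transcript, and the strand setting of the counting is not given in the sources used here, so reads of the pair cannot be told apart.

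**Figure D2:**
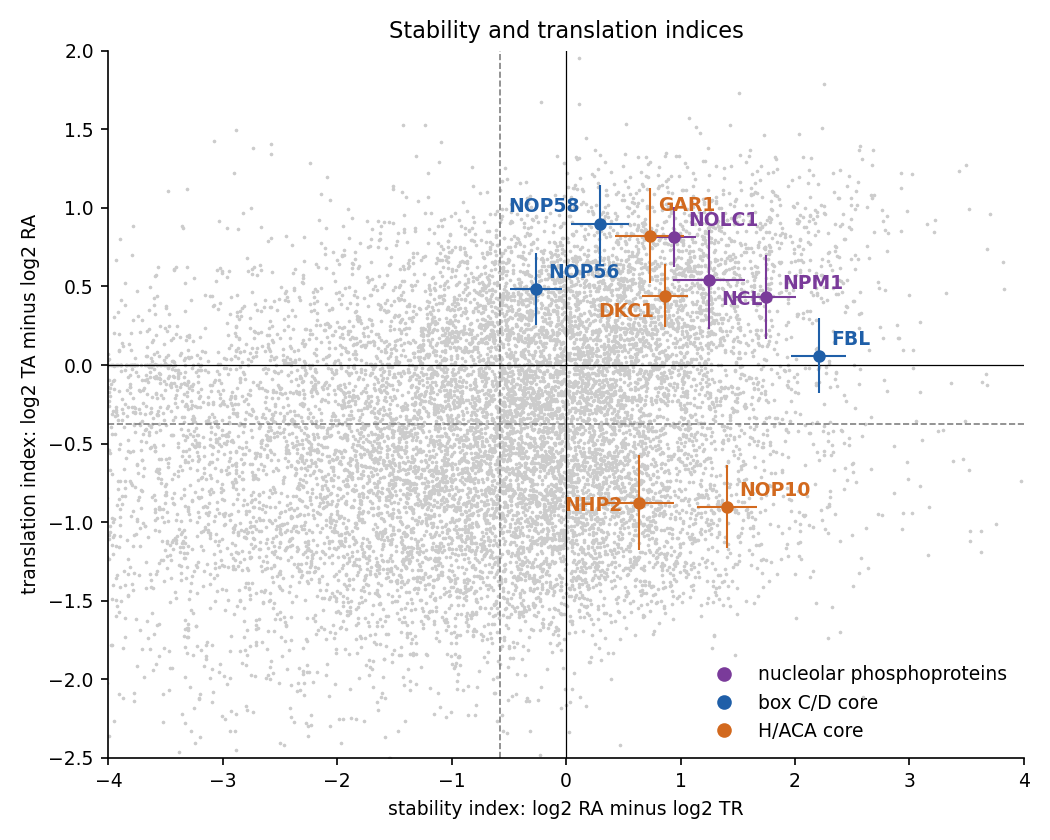
Stability index (x axis, log2 RA minus log2 TR) against translation index (y axis, log2 TA minus log2 RA) for the genes tested (grey, axes limited to the area shown) and the 10 genes (coloured by role, bars are the SE). Dashed lines mark the medians of all genes, -0.58 and -0.37, and NHP2 and NOP10 are the coloured points below the horizontal dashed line.

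The 4 proteins of the H/ACA core split into DKC1 and GAR1, whose polysome levels were above their mRNA levels on average, and NHP2 and NOP10, whose polysome levels were below. DKC1, the pseudouridine synthase, which also holds the telomerase RNA, lies at chrX:153991017-154005964 on the plus strand with 15 exons. It was at 20.01 and 19.7 RPKM in TR, at 36.3, 38.9 and 33.9 RPKM in RA, and at 60.6 and 40.1 RPKM in TA. The groups were stacked without overlap, although TA replicate 2 stood only slightly above the RA libraries. RA exceeded TR 1.82-fold (log2 0.87, SE 0.20, limma adjusted p = 0.00545), and TA against RA gave 0.44 (SE 0.20, limma adjusted p = 0.123), not called.

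GAR1, which takes the place of the assembly factor NAF1 late in particle maturation, lies at chr4:110736666-110745896 on the plus strand with 7 exons. Its libraries were at 19.8 and 24.4 RPKM in TR, at 33.4, 52.2 and 27.9 RPKM in RA, and at 80.8 and 51.8 RPKM in TA. RA lay above TR throughout, while TA replicate 2 fell just below the highest RA library. Neither step was called, with log2 ratios of 0.73 for RA against TR (SE 0.30, limma adjusted p = 0.062) and 0.82 for TA against RA (SE 0.30, limma adjusted p = 0.0662), but TA exceeded TR 2.94-fold (limma adjusted p = 0.00294). The translation index of GAR1 was above that of 95.9% of genes tested, and its RA libraries were at 37.8 ± 12.8 RPKM (SD, n = 3).

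NHP2, a small protein that binds the RNA stem of the H/ACA particle, lies at chr5:177576464-177580895 on the minus strand with 4 exons. It was at 61.1 and 55.7 RPKM in TR, at 117, 73.7 and 87.4 RPKM in RA, and at 36.0 and 68.4 RPKM in TA. The RA libraries were above both other groups without overlap. The RA against TR log2 ratio was 0.64 (SE 0.30, limma adjusted p = 0.0936), and the TA against RA ratio was -0.88 (SE 0.30, limma adjusted p = 0.0551), neither of which was called. TA replicate 1 was the lower, and without it the TA against RA ratio was -0.41 (limma adjusted p = 0.37). Exons of RMND5B on the opposite strand cover 376 bases, 48.2%, of the NHP2 canonical mRNA. How reads in that stretch were assigned is not given in the sources used here. The NHP2 values may thus hold reads of both genes or lack reads of the shared stretch.

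NOP10, the smallest protein of the core, which bridges DKC1 and NHP2, was the gene called higher in RA than in TR and lower in TA than in RA. It lies at chr15:34631360-34635381 on the minus strand, with 2 exons and a coding region of 195 bases for 64 residues, beside 2133 bases for NCL. The whole coding region from GRCh37 is printed to show how short it is, with the start and stop codons in capitals.
NOP10: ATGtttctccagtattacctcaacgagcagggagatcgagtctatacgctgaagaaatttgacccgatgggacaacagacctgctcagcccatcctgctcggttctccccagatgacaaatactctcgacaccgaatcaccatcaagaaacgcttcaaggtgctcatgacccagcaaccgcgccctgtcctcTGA
NOP10 was at 56.2 and 71.0 RPKM in TR, at 154, 177 and 172 RPKM in RA, and at 67.5 and 119 RPKM in TA. The RA libraries lay close together and above both other groups, and the TR and TA libraries overlapped. RA exceeded TR 2.65-fold (log2 1.40, SE 0.26, limma adjusted p = 0.00175). RA exceeded TA 1.87-fold (log2 of TA to RA -0.90, SE 0.26, limma adjusted p = 0.0313). The second call was lost without RA replicate 2 (limma adjusted p = 0.0532), RA replicate 3 (limma adjusted p = 0.0845) or TA replicate 1, where the log2 ratio was -0.49 (limma adjusted p = 0.225), and without either TR replicate (limma adjusted p = 0.0691 and 0.0688). With each library centred on its median the ratio was -0.40 (limma adjusted p = 0.262).

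The order of the 10 genes, set on the length-scaled RPKM, changed between the assays. In TR, NCL at a mean of 189.7 RPKM and NOP56 at 127 RPKM headed the order and were apart from each other and from the rest. NOP10, NPM1, NOLC1 and NHP2 followed with overlapping neighbours, then NOP58 and FBL, each apart from the gene next to it on either side. The TR range of NOP58 nevertheless overlapped that of NOLC1. GAR1 and DKC1 came last and overlapped. In RA, NCL led at 444 RPKM, NPM1, FBL and NOP10 formed an overlapping run, NOLC1, NOP56, NHP2 and NOP58 formed the next, and GAR1 and DKC1 closed the order. In TA, NCL at 650.1 RPKM and NPM1 at 293 RPKM were apart from the rest, FBL and NOLC1 overlapped, and each of the other 6 overlapped its neighbour, from NOP56 at 149.7 RPKM to DKC1 at 50.3 RPKM. FBL thus stood eighth in TR and the third in RA and TA, while NOP56 stood behind NCL in TR and the sixth in RA.

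Within each snoRNP core, the levels of the genes covered here were closer together on polysomes than in either other assay. SNU13, a further protein of the box C/D core, is not among them, and other sets of genes were not compared. The proteins of a core sit in the particle together, and the ratio of the highest to the lowest RPKM among the core genes of a library measures how far apart their levels are. For FBL, NOP56 and NOP58 this ratio was 2.75 and 3.38 in TR, 2.59, 3.17 and 3.11 in RA, and 1.26 and 2.16 in TA. For DKC1, GAR1, NHP2 and NOP10 it was 3.09 and 3.60 in TR, 4.62, 4.54 and 6.17 in RA, and 2.24 and 2.97 in TA. Both TA libraries lay below all TR and RA libraries in both cores, given here as a description without a test. The genes at the ends differed, since NOP56 was highest and FBL lowest of the box C/D core in TR, whereas FBL was highest and NOP58 lowest in RA and TA.

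**Figure D3:**
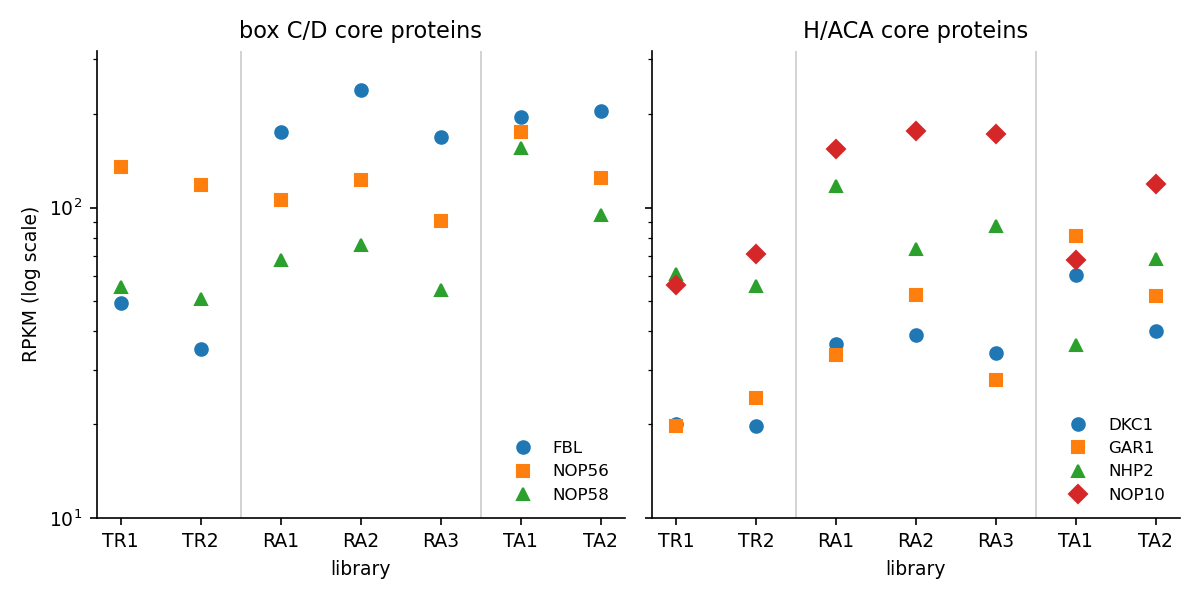
RPKM (log scale) in each of the 7 libraries (1 symbol per gene and library) for the box C/D core (left) and the H/ACA core (right). The symbols of a library lie closest together in TA replicate 1 for the box C/D core, where the highest is 1.26 times the lowest, and for the H/ACA core the corresponding ratio is 2.24 in TA replicate 1 and 6.17 in RA replicate 3.

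The TA replicates differed from each other by more for NHP2 and NOP10 than for the other 8 genes, and in the other direction from 7 of those. TA replicate 1 was 1.40-fold above TA replicate 2 for NCL, 1.48-fold for NPM1, 1.41-fold for NOP56, 1.65-fold for NOP58, 1.51-fold for DKC1, 1.56-fold for GAR1 and 1.13-fold for NOLC1. FBL had nearly the same level in both, with a ratio of 0.959. TA replicate 2 was 1.90-fold above TA replicate 1 for NHP2 and 1.76-fold above it for NOP10. Against the mean of the RA libraries, NHP2 was at -1.34 in TA replicate 1 and -0.41 in TA replicate 2 on the log2 scale, and NOP10 at -1.31 and -0.49.

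NHP2 and NOP10 have the shortest coding regions of the 10 genes, 462 and 195 bases. Over the 13096 genes with a coding length in the annotation (91.5% of those tested), genes with coding regions under 300 bases had a median translation index of -0.85 (268 genes), those of 300 to 600 bases -0.48 (1387 genes), those of 600 to 1200 bases -0.27 (3849 genes), those of 1200 to 2400 bases -0.23 (4819 genes) and those of 2400 bases or more -0.51 (2773 genes). NOP10, at -0.90, lay near the median of its length class, while NHP2, at -0.88, lay below that of its own. The difference between the polysome libraries also moved with length, with medians of -1.03 in TA replicate 1 and -0.59 in TA replicate 2 for the shortest class and of -0.23 and -0.25 for 1200 to 2400 bases. The other 8 genes, with coding regions from 654 bases (GAR1) to 2133 bases (NCL), all had translation indices above the medians of their length classes. The part of coding length in these values was not tested.

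**Figure D4:**
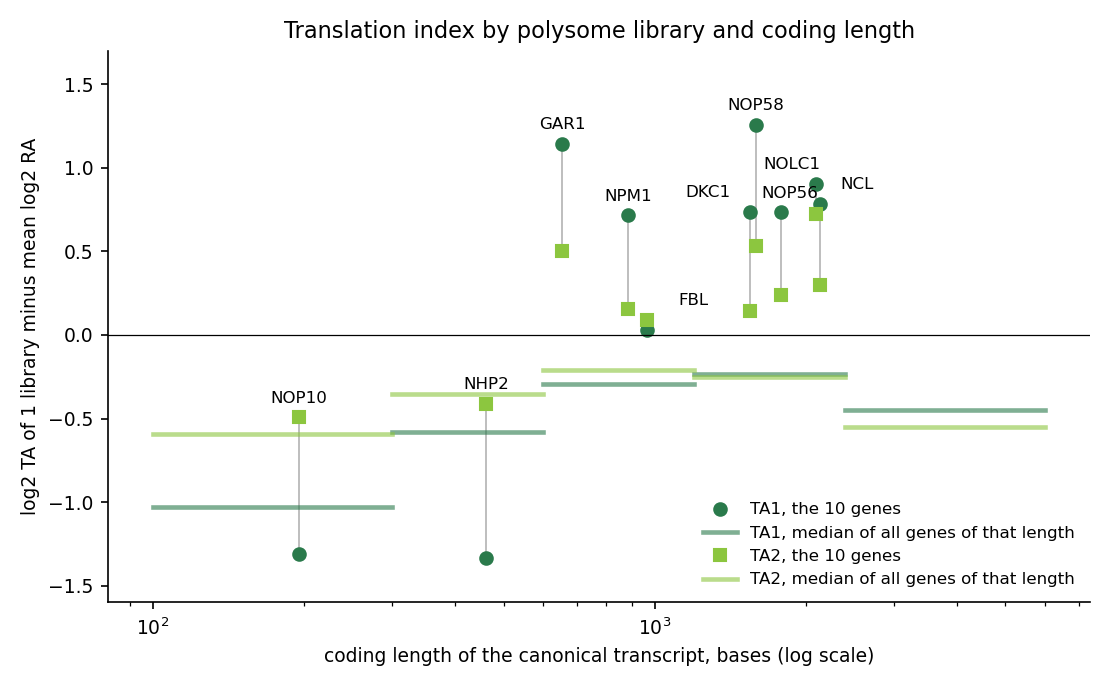
Log2 TA of 1 library minus mean log2 RA (y axis) against coding length of the canonical transcript in bases (x axis, log scale) for the 10 genes in TA replicate 1 (circles) and TA replicate 2 (squares), with thin lines joining the libraries of a gene and horizontal bars at the median of all genes in each length class (the bars of the outermost classes are cut short). NOP10 and NHP2 are at the short end and below 0 in both libraries, and the other 8 genes lie above the bars of their classes.

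The share of untranslated sequence in the canonical mRNA was uneven among the genes, from 6.7% in NOP56 to 61.5% in NOP10. NOP56, FBL (14.1%) and NOP58 (20.3%) had the lowest shares, and the shares of NPM1, GAR1 (35.6%), DKC1 (37.4%), NHP2 (40.8%), NOLC1 (43.6%) and NCL (45.6%) followed in that order. FBL and NOP56 thus have neighbouring shares and log2 ratios of RA to TR of 2.21 and -0.26.

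The starts and promoters were looked at for a pair of sequence features known in genes of this kind. Many mRNAs of the translation machinery begin with a C and a run of pyrimidines (a 5′ TOP), and CACGTG is the E-box to which MYC, a driver of ribosome biogenesis genes, binds. RefSeq promoter windows (GRCh38.p14, mostly upstream of the start and reaching a short way past it) were matched for 8 of the 10 genes, NOP58 and NOLC1 being the exceptions, and gave 10 windows. A C followed by at least 4 pyrimidines at the annotated start was found in windows of 2 of the 8 genes, against 5.142% of all 27305 genes with a window. These are FBL, at chr19:39846365-39846389 on the minus strand, and NPM1, at chr5:171387839-171387863 on the plus strand, shown with the run in capitals. The other NPM1 window has no such run at its start. FBL and NPM1 also had the highest RA to TR ratios of the 10 genes, and a link between the run and the ratio was not tested.
FBL start: cgcctgcgctCTTTTCCacgtgcga
NPM1 start: agcctgcgtcCTTTCCCTggtgtga
CACGTG, which reads the same on both strands, was found in windows of NOP10, FBL and GAR1, 3 of the 8 genes, against 8.775% of all genes with a window. NOP10 holds it at both 170 and 11 bases before its start, and its copies are shown in capitals from chr15:34343274-34343333 and chr15:34343137-34343174, both on the minus strand.
NOP10 distal: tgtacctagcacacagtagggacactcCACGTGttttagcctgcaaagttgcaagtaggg
NOP10 proximal: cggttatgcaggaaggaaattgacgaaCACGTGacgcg
In FBL and GAR1 it lies past the annotated start, and in FBL it overlaps the end of the pyrimidine run. The other GAR1 window does not hold it. These matches are descriptions of letters in a window, and binding and the use of these starts were not measured.

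Genes that work with the 10 were read from lists of assembly factors. The box C/D particle is put together with the help of the R2TP chaperone complex, whose ATPases RUVBL1 and RUVBL2 were called higher in both steps. RUVBL1 was at 68.3 ± 12.8 RPKM in RA (SD, n = 3) and 166 ± 8.38 RPKM in TA (SD, n = 2), a log2 ratio of 1.30 (SE 0.22, limma adjusted p = 0.00513), and RUVBL2 at 154 ± 20.7 RPKM and 291 ± 28.1 RPKM, a log2 ratio of 0.92 (SE 0.20, limma adjusted p = 0.0117). Their cofactor PIH1D1 was called lower in TA than in RA (log2 -0.84, limma adjusted p = 0.02). Of the 8 tested genes of that list, 4 were called higher and 2 lower in RA than in TR (median log2 0.24), and 3 higher and 1 lower in TA than in RA (median 0.52). Over all genes tested, 19.2% were called higher and 48% lower in RA than in TR (median -0.58). In TA against RA the shares were 6.66% and 29.2% (median -0.37).

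The 5 tested genes of H/ACA assembly and telomerase did not share a direction. PARN, which trims snoRNA and telomerase RNA ends, was called higher in RA than in TR (log2 0.51, limma adjusted p = 0.0402). TERT, the telomerase reverse transcriptase, was called lower (log2 -2.19, limma adjusted p = 0.000126), as was WRAP53, which takes H/ACA RNAs to Cajal bodies (log2 -1.19, limma adjusted p = 0.000892). TERT stood at 4.505 ± 0.487 RPKM in TR (SD, n = 2), 0.912 ± 0.160 RPKM in RA (SD, n = 3) and 0.309 ± 0.082 RPKM in TA (SD, n = 2). It was the 1 gene of the list called in TA against RA, as lower. TERT passed the filter of 1 RPKM through TR alone, which favours a lower RA. Its means in RA and TA were both under that filter.

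Assembly factors of both ribosomal subunits, which act on the pre-ribosomes that these snoRNPs modify, had positive median log2 ratios in both steps. The medians of all genes tested were -0.58 for RA against TR and -0.37 for TA against RA. Of all genes, 19.2% were called higher and 48% lower in RA than in TR, and 6.66% and 29.2% in TA than in RA. Of 34 tested genes of the small subunit processome, 14 were called higher and 5 lower in RA than in TR, and 14 higher and 2 lower in TA than in RA, with median log2 ratios of 0.31 and 0.48. Of 47 genes of large subunit assembly, 17 were called higher and 10 lower in RA than in TR, and 18 higher and 2 lower in TA than in RA, with medians of 0.25 and 0.60. WDR3, a processome subunit, had a log2 ratio of RA to TR of 1.42, and PES1, of the PeBoW complex, one of 1.53. The processome protein IMP3 had -1.04, and PPAN and NOL9, of large subunit assembly, had -1.89 and -1.71. On polysomes WDR74 reached a log2 ratio to RA of 1.33 (limma adjusted p = 0.00613) and NOC4L 0.997 (limma adjusted p = 0.00701), while the very long MDN1 was at -1.35 (limma adjusted p = 0.00395). No test of these lists as lists was made, and their counts were not recomputed with centring.

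The remaining lists had medians on both sides of 0 in the polysome step. Of all genes tested, 6.66% were called higher and 29.2% lower in TA than in RA, and 19.2% and 48% in RA than in TR. Late small subunit assembly factors were called higher in TA than in RA in 2 of 12 (BYSL, log2 1.003, and the kinase RIOK2, log2 0.95) and lower in 0, with a median of 0.42. RNA polymerase I subunits and factors were called higher in 3 and lower in 3 of 15, with a median of 0.01, among them the initiation factor RRN3 at 0.91 and the subunit POLR1D at -1.14. Cytosolic ribosomal proteins, with which the ribosomal RNA is packed, were called higher in RA than in TR in 52 of 83 and lower in 14 (median 1.37). In TA against RA they were called higher in 0 of 83 and lower in 27 (median -0.68). The median of the 10 genes in that step was 0.46 and that of all genes -0.37, and the difference between the lists was not tested. The lists were not matched for expression level, or for coding length, with which the translation index varied. Reads that ribosomal protein genes may share with pseudogenes were not examined.

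In RA, the paralogs of NPM1 and FBL had lower levels than the genes themselves, whereas in TR NPM3 stood above NPM1, at a mean of 75.3 RPKM against 63.6 RPKM. NPM3, a relative of NPM1, was at 127 ± 15.2 RPKM in RA (SD, n = 3) against 75.3 ± 6.65 RPKM (SD, n = 2) in TR, a log2 ratio of 0.75 (limma adjusted p = 0.00745). NPM2, known from oocytes, was at 1.76 ± 0.372 RPKM in RA (SD, n = 3) and FBLL1, a relative of FBL, at 0.0745 ± 0.0703 RPKM (SD, n = 3), both below their TR levels of 5.05 ± 1.33 RPKM and 3.02 ± 0.72 RPKM (SD, n = 2). FBLL1 passed the filter on low values through TR alone, which favours a lower RA. Outside these lists, the genes whose 3 mean log2 levels lay nearest to the median of the 10 genes, by Euclidean distance over TR, RA and TA, were GRINA (0.0536), NPW (0.147), TMEM147 (0.158), TMEM256 (0.164) and ATP5G1 (0.18).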

How the data were processed

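All 7 libraries of the series were used, in groups taken from the labels: TR (n = 2), RA (n = 3) and TA (n = 2). The authors processed images with CASAVA, aligned reads to hg19 with TopHat, used HTSeq-count for the exonic reads of each gene, and deposited 1 table of RPKM values. Versions, strand setting and annotation are not given in the sources used here. Library sizes and whole reads per gene were worked out from the steps of the RPKM values (tolerance 0.0001) and are used only to describe depth. Intervals came from limma and reflect the spread between libraries. Genes averaging 1 RPKM or more in any of the groups were tested with limma 3.58.1 (eBayes with trend, R 4.3.3) on log2(RPKM + 0.1), in 1 fit of all 7 libraries, with Benjamini-Hochberg adjustment over 14305 genes. A fold is on that scale and understates changes of low genes. The procedure was tested on simulated data. The genes described and all lists were chosen with earlier results of these data known. Named from each list were at most the 2 highest and 2 lowest called ratios, and the 5 genes nearest the members' median level. Coordinates, exons and snoRNAs came from GENCODE 44 lifted to GRCh37, promoters from RefSeq. SNU13, a further protein of the box C/D core, was not analysed here. Alternatives were other pseudocounts, filters, centring, no trend, a replicate block and leaving out each library. Python 3.11.15, numpy 2.4.6, pandas 2.3.3 and matplotlib 3.10.9 were used.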

Additional observations from a re-analysis of the deposited data

How the results depend on the processing

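Of 450 ratios of the 10 genes recomputed under 15 alternatives, 401 kept their direction and their side of the threshold, 22 became called, 19 lost the call and 8 changed sign. The 7 calls for TA against TR held in all 15 alternatives, as did those of NPM1, FBL, DKC1, NOP10 and NOLC1 for RA against TR, while NCL held in 14. In TA against RA, NOLC1 held in 11, NOP58 in 9 and NOP10 in 7 of 15. Leaving out 1 library gave 0 to 3 genes called higher and 0 to 2 called lower in TA than in RA, with 0 in both directions without RA replicate 3 or TA replicate 1. Keeping only genes that average 1 RPKM or more in all 3 groups gave 2 called lower. Centring each library on its median gave 7 called higher and 0 lower for TA against RA, and turned the median of all genes to 0.093 (RA against TR), 0.13 (TA against RA) and 0.095 (TA against TR), the NOP56 ratio of RA to TR to 0.41 and the NHP2 ratio of TA to TR to 0.94. Ratios near 0 also changed sign when 1 library was left out. FBL TA against RA ranged from -0.035 (without RA replicate 3) to 0.22 and was -0.0056 without RA replicate 1. TA against TR ranged from -0.027 (without TA replicate 1) to 0.47 for NOP56, and from -0.70 to 0.23 (without TA replicate 1) for NHP2.

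The labels number the replicates without saying that a number marks a shared culture or day. Across 10825 genes the difference between replicates 1 and 2 correlated at 0.149 between TR and RA, 0.02 between TR and TA and -0.562 between RA and TA, while the difference between RA replicates 2 and 3 correlated at 0.741 with that between TA replicates 1 and 2. Polysome and RA libraries thus varied together, but not by their numbers, and the numbers were not taken to pair the libraries. With the replicate block, 0 genes were called higher and 0 lower in TA than in RA, and the FBL ratio was -0.035. With the block and the polysome numbers exchanged, chosen after seeing the data, 0 were called higher, 1 lower, and the FBL ratio was again -0.035. Neither block changed the other counts of called members, for RA against TR and TA against TR, by more than 1.5 times. Over all genes, TA against RA gave 953 higher and 4173 lower calls, 109 and 1387 with the block, 2713 and 1404 with centring, 198 and 1803 without TA replicate 1, 456 higher without TA replicate 2 and 422 higher without RA replicate 3. Centring also moved RA against TR to 5066 higher and 4814 lower, and TA against TR to 5436 and 5044, in place of 2743 and 6870, and 2439 and 8231. The filter on all 3 groups left 10825 genes, with 3656 lower calls for RA against TR and 4935 for TA against TR. The planned count-based tests on whole reads were not run because the deposited unit is RPKM. With 2 or 3 libraries a group and as few as 85 reads in TR, small differences between these genes could not be detected.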
